A study of Mus musculus with 32 samples.

Results

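Levels of 8 genes of cell migration were followed across bone marrow progenitors: the chemokine receptor genes Ccr1, Ccr2, Ccr9 and Cx3cr1, the sphingosine 1-phosphate receptor gene S1pr1, and the chemokine genes Ccl3, Ccl4 and Ccl9. They were chosen by name, and all 8 were found among the 30644 genes of the deposited count table. The libraries came from multipotent progenitors sorted as MPP1, MPP2, MPP3 and MPP4 from the marrow of C57BL/6 mice. The mice carried 2 copies (1013/1013), 1 copy (+/1013) or no copy (wild type) of the Cxcr4 1013 allele, which encodes CXCR4 with a truncated cytoplasmic end, the kind of change found in the human immune disorder WHIM syndrome. The allele is in the germline, so cells other than the sorted ones carry it too. Each subset had 2 libraries of 1013/1013, 3 of +/1013 and 3 of wild type, 32 in all, and each library was made from 3000 pooled cells. The mice's age and sex are not given in the sources used here, and the labels do not say that libraries came from separate animals, so p-values measure the spread between these libraries.

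Chemokines are small secreted proteins that attract cells through receptors coupled to G proteins. In bone marrow, CXCR4 holds stem and progenitor cells near the stroma that makes its ligand CXCL12, and other receptors guide cells that leave: CCR2 draws monocytes and some progenitors towards inflamed tissue, CCR9 helps lymphoid progenitors settle in the thymus, and S1PR1 lets cells follow sphingosine 1-phosphate into blood and lymph. MPP1 lies nearest to the stem cells, MPP2 is biased to megakaryocytes and erythroid cells, MPP3 to myeloid cells and MPP4 to lymphoid cells.

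Ccl3, Ccl4 and Ccl9 lie together on mouse chromosome 11, and Ccr1, Ccr2, Ccr9 and Cx3cr1 lie on chromosome 9 (mm10). Ccl9 spans chr11:83572919-83578636 on the minus strand, Ccl3 chr11:83647844-83649355 on the minus strand and Ccl4 chr11:83662584-83664683 on the plus strand, with 69.2 kb between Ccl9 and Ccl3 and 13.2 kb between Ccl3 and Ccl4. Ccr9 spans chr9:123678439-123784330 (plus), Ccr1 chr9:123962124-123968692 (minus) and Ccr2 chr9:124101950-124113557 (plus), with 177.8 kb between Ccr9 and Ccr1 and 133.3 kb between Ccr1 and Ccr2. Cx3cr1 spans chr9:119901616-120069879 (minus), 3.61 Mb from Ccr9, and S1pr1 chr3:115710433-115715072 (minus). The annotated spans of Cx3cr1 and Ccr9 hold 9 and 6 other genes, among them Wdr48 and Csrnp1 in Cx3cr1 and Lztfl1 in Ccr9. The strand setting of the counting is not given in the sources used here, so a part of the reads of Cx3cr1 and Ccr9 may belong to such neighbours, and their values are uncertain.

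Promoter sequence was at hand for 6 of the 8 genes (RefSeq, GRCm38.p6, 250 bases before to 50 bases after the annotated start). The following 4 belong to genes whose level in MPP4 passed the test against MPP1 and are shown 5′ to 3′ on the gene's strand. Capitals mark matches, on either strand, to 6 motifs. The TATA box was searched as TATAAA. The motif of ETS factors such as PU.1 was searched as GAGGAA. C/EBP factors were given the motif TTGCNNAA. The RUNX motif was spelled as TGTGGT. For AP-1 the letters were TGANTCA. The GATA motif was taken as AGATAA. The windows are chr11:83649329-83649628 for Ccl3, chr11:83578587-83578886 for Ccl9, chr9:124101933-124102232 for Ccr2 and chr9:123766961-123767260 for Ccr9.
Ccl3: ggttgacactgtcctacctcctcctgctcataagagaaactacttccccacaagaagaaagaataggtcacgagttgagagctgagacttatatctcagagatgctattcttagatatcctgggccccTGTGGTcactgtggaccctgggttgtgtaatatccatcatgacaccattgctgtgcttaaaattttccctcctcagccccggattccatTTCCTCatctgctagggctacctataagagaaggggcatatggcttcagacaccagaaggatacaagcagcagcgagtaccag
Ccl9: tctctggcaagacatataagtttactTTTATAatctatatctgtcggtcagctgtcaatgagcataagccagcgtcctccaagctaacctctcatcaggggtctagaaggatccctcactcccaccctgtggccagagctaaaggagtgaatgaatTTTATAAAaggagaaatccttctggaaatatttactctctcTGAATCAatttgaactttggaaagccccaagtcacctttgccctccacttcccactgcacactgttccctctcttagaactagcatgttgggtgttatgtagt
Ccr2: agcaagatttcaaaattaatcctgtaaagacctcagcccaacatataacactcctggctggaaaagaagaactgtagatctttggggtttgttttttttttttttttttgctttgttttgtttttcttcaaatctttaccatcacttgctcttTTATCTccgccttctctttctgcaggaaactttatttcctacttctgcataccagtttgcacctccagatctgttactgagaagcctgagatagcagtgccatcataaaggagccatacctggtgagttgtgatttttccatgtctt
Ccr9: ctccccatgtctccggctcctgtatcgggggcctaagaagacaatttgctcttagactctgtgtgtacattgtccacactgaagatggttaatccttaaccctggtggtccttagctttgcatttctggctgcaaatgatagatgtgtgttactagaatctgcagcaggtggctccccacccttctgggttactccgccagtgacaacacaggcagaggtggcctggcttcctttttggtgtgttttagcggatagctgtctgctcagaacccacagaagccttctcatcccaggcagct
The neighbouring chemokine genes Ccl3 and Ccl9 shared none of the 6 motifs. The Ccl3 window held a RUNX match at base -122 and an ETS match at -33 from the start, which 16.8% and 28.3% of 32851 promoters of this length hold. The Ccl9 window held 3 TATA box matches, at -224, -94 and -92, of which the last pair overlap, and an AP-1 match at -53 (13.6% and 7.81% of promoters). The AP-1 letters allow any base at N, and the match here reads TGAATCA, with A at that place. The Ccr2 window held a GATA match at -97 (11.2% of promoters), and the Ccr9 window held no match to any of the 6. Of the windows not printed, Ccr1 had an ETS match at -129 and a RUNX match at -58, and Cx3cr1 a RUNX match at -54. These are letters in a window, not sites shown to be bound.

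The libraries held 13016038 to 37050983 counts. Levels are TMM-scaled CPM, a library's counts of a gene divided by its effective total and put on a common scale. The labels number the libraries, and the 8 whose number is a multiple of 3 stood apart in earlier results of these data: wild type 3 and +/1013 3 in the subsets MPP2 to MPP4, plus 1013/1013 2 in MPP2 and in MPP4. In them, 10 mature neutrophil genes made up 0.00302% to 0.381% of counts, against 0.000229% to 0.00702% in the other 24, and 12 monocyte and macrophage genes 0.00762% to 0.0812%, against 0.00112% to 0.0172%. Of counts, 6 erythroid genes made up a median of 0.126% in the 8 (0.00634% to 0.387%), against 0.00505% in the others (0.00128% to 0.0396%), and 6 B cell genes a median of 0.00855%, against 0.0018%. The 8 were not all alike: in MPP4 1013/1013 2 the neutrophil (0.00302%), monocyte (0.00762%) and erythroid (0.00634%) shares lay within the range of the other 24. In the rest of the 8 the neutrophil share was 0.0860% or more. All 18 differences between subsets that passed with every library kept their direction without these 8. Levels or differences without them stand beside the subset results of the 8 members only. Leaving them out left a lone 1013/1013 library in MPP2 and in MPP4, which was assumed to vary like the others. The sort markers followed the labels: Flt3, which defines MPP4, had medians of 22.6, 11.1, 111 and 399.8 CPM in MPP1, MPP2, MPP3 and MPP4, and Slamf1, which MPP3 and MPP4 lack, medians of 36.4, 21.2, 0 and 0. Counts per gene do not read the shortened tail, so they give no check of the genotype labels. In bulk libraries, fewer cells of a type and less RNA per cell cannot be told apart.

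**Figure D1:**
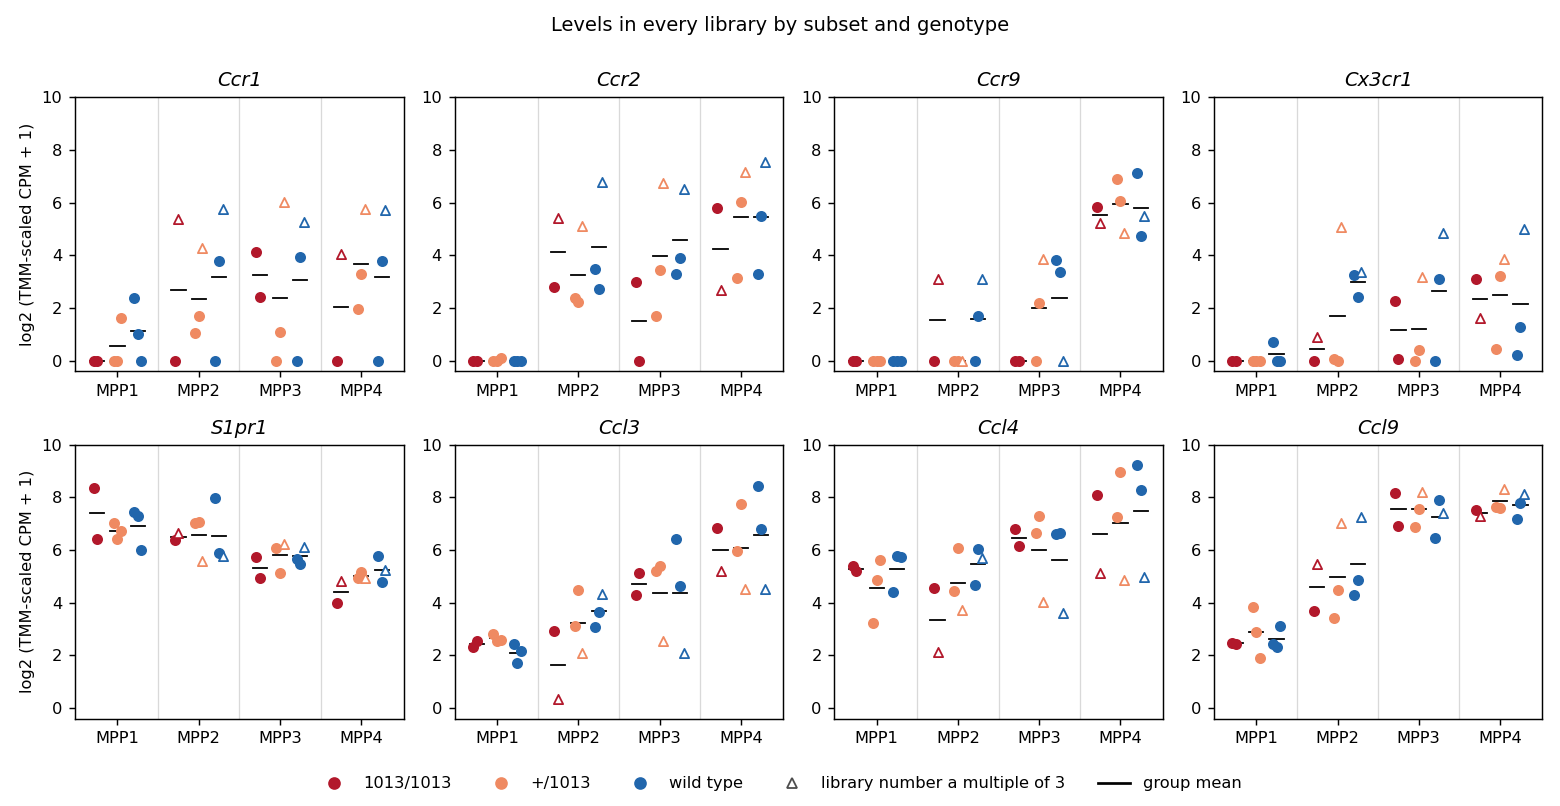
Levels of the 8 genes in all 32 libraries, as log2 of TMM-scaled CPM plus 1, by subset and, within a subset, by genotype (1013/1013, +/1013, wild type). Each point is a library, triangles are the 8 libraries whose number is a multiple of 3, and lines are group means. Ccr9 is at 0 in all 8 MPP1 libraries and between 25.3 and 138.6 CPM in all 8 MPP4 libraries, and S1pr1 falls off towards MPP4.

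The question of the subset comparisons was how migration genes differ between the 4 progenitor populations. With the 3 genotypes weighted equally, 7 of the 8 genes passed the test in MPP4 against MPP1, 6 higher (Ccl3, Ccl4, Ccl9, Ccr2, Ccr9, Cx3cr1) and S1pr1 lower, by edgeR's quasi-likelihood test with Benjamini-Hochberg adjustment over 18676 genes at a threshold of 0.05. Of all genes tested in that comparison, 14.7% passed, 7.59% higher and 7.12% lower. In MPP3 against MPP1, 4 passed (Ccl3, Ccl9 and Ccr2 higher, S1pr1 lower), where 3.11% of all genes did, 2.36% higher and 0.75% lower. In MPP2 against MPP1, 2 passed (Ccl9 and Ccr2, both higher), where 6.73% of all genes did, 5.01% higher and 1.72% lower. In MPP4 against MPP2, 5 passed (Ccl3, Ccl4, Ccl9 and Ccr9 higher, S1pr1 lower), where 4.01% of all genes did, 2.01% higher and 2% lower. With the 8 libraries left out these counts were 7, 4, 2 and 5. In wild type alone, with 3 libraries a subset, they were 3, 1, 0 and 0. Of all genes, 0.76%, 0.102%, 0 and 0.428% passed in wild type alone. That was a contrast of the wild-type groups within the same fit of all libraries, so it compared fewer samples. The share of all genes with the 8 libraries left out is not given here. Every adjusted p below is from edgeR's test unless another tool is named. Where all libraries of a subset are said to lie above or below those of another, the share of all genes so separated was not counted. Nothing particular to the 8 genes is read from such separations.

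Ccl3 encodes a chemokine that binds CCR1 and is known to restrain the cycling of stem and progenitor cells. Over the 8 libraries of a subset, the lowest, median and highest level was 2.28, 4.60 and 6.06 CPM for MPP1 and 0.283, 7.58 and 21.2 for MPP2. For MPP3 it was 3.25, 29.2 and 83.7 CPM, and for MPP4 21.8, 85.1 and 345. All 8 MPP4 libraries lay above all MPP1 libraries, and above all MPP2 libraries by a narrow margin (lowest 21.77 against highest 21.19 CPM). MPP4 was higher than MPP1 by 4.61 on the log2 scale (SE 0.80, adjusted p = 0.000437) and higher than MPP2 by 3.76 (SE 0.76, adjusted p = 0.00341). MPP3 was higher than MPP1 by 2.80 (SE 0.72, adjusted p = 0.0334). Without the 8 libraries the 3 differences were 5.14, 3.98 and 3.14. Neighbours in the order MPP1, MPP2, MPP3, MPP4 did not pass (log2 0.85, 1.95 and 1.81, adjusted p = 0.502, 0.231 and 0.277). The MPP3 call ended in limma-voom (2.34), with a term for the 5 libraries numbered 46 or higher (2.78), and without any 1 of 10 libraries: MPP1 wild type 2 or 3, MPP1 +/1013 2 or 3, either MPP1 1013/1013, MPP3 wild type 1, MPP3 +/1013 1 or 2, or MPP3 1013/1013 2 (2.32 to 2.84). The MPP4 call against MPP2 ended in limma-voom (3.83) and was larger without MPP2 1013/1013 1 (4.94), and both the MPP3 call and that one ended in wild type alone (3.46 and 3.65).

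Ccl4, the neighbour of Ccl3, encodes a chemokine that attracts immune cells. In MPP1 its lowest, median and highest level was 8.35, 38.4 and 53.0 CPM (n = 8 in each subset). MPP2 had 3.39, 23.8 and 67.1 CPM. MPP3 had 11.3, 97.6 and 155.8 CPM, and MPP4 had 28.4, 209.9 and 604. Of the 8 MPP4 libraries, 5 lay above all MPP1 libraries, and the remaining 3 were the libraries numbered by multiples of 3, at 28.4 to 34.3 CPM. MPP4 was higher than MPP1 by 2.63 on the log2 scale (SE 0.71, adjusted p = 0.0156) and higher than MPP2 by 3.02 (SE 0.73, adjusted p = 0.0158). Without the 8 libraries both were 3.26. The other 4 pairs of subsets did not pass (adjusted p = 0.348 to 0.873). The call against MPP1 ended without MPP1 1013/1013 1 (2.67), MPP1 1013/1013 2 (2.59) or MPP4 1013/1013 1 (1.91), and that against MPP2 without MPP2 1013/1013 2 (2.74) or MPP4 1013/1013 1 (2.29) and was 3.66 without MPP2 1013/1013 1. Both ended in limma-voom (1.88 and 2.55) and in wild type alone (2.92 and 2.76).

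The balance of the 2 neighbouring genes also varied. The ratio of Ccl4 to Ccl3 counts had a median of 8.53 in MPP1 (range 1.38 to 23.3) and of 3.42 in MPP2 (range 2.61 to 12.0). MPP3 had a median ratio of 3.30 (range 1.15 to 5.90) and MPP4 of 2.04 (range 0.966 to 2.87). These ranges overlap, and the ratio was not tested.

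Ccl9 encodes a chemokine of rodents that acts through CCR1. Its lowest, median and highest level was 2.77, 4.49 and 13.1 CPM for MPP1 and 9.64, 24.7 and 152 for MPP2 (n = 8 each). For MPP3 it was 86.4, 177 and 293 CPM, and for MPP4 143, 195.8 and 321. No library of MPP3 or MPP4 overlapped MPP1. Against MPP1, MPP4 was higher by 5.19 on the log2 scale (SE 0.61, adjusted p = 3.83e-06), MPP3 by 5.06 (SE 0.60, adjusted p = 2.29e-05) and MPP2 by 3.03 (SE 0.53, adjusted p = 0.00328). Between MPP4 and MPP3 it was 0.13 (SE 0.48, adjusted p = 1), so these neighbours did not differ beyond their spread. MPP4 was higher than MPP2 (log2 2.16, SE 0.51, adjusted p = 0.0132), and MPP3 against MPP2 missed the threshold (log2 2.03, SE 0.50, adjusted p = 0.0574). Without the 8 libraries, MPP2 against MPP1 was 1.54, MPP3 against MPP2 was 3.39 and MPP4 against MPP2 was 3.52, and all 3 passed, as did MPP4 and MPP3 against MPP1 (5.06 and 4.93). Without MPP2 +/1013 3 alone, the call of MPP2 against MPP1 was 2.44 and that of MPP4 against MPP2 was 2.75. The MPP2 call ended in limma-voom (2.48) and in wild type alone (3.63). The MPP4 call against MPP2 ended without MPP2 1013/1013 1 (1.94) and in wild type alone (1.69).

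S1pr1 encodes the receptor through which lymphocytes and stem and progenitor cells respond to sphingosine 1-phosphate when they leave tissues. Levels ran from 63.5 through a median of 117 to 325.5 CPM in MPP1, and from 46.5 through 90.4 to 252 in MPP2 (n = 8 each). They ran from 29.4 through 51.5 to 74.8 CPM in MPP3, and from 15.0 through 29.7 to 53.6 in MPP4. All 8 MPP4 libraries lay below all 8 MPP1 libraries. It fell in MPP4 against MPP1 (log2 -2.26, SE 0.36, adjusted p = 0.000189), in MPP4 against MPP2 (log2 -1.82, SE 0.35, adjusted p = 0.00246) and in MPP3 against MPP1 (log2 -1.48, SE 0.35, adjusted p = 0.0215). Leaving out the 8 libraries gave log2 -2.40, -2.15 and -1.62 for these 3. Neighbouring subsets did not pass, at log2 -0.44 in MPP2 against MPP1, -1.04 in MPP3 against MPP2 and -0.78 in MPP4 against MPP3 (adjusted p = 0.492, 0.194 and 0.371). The MPP3 call against MPP1 ended without MPP1 1013/1013 1, the library of 325.5 CPM (log2 -1.07), and without MPP3 1013/1013 2 (log2 -1.35). All 3 calls ended in wild type alone, at log2 -1.74, -1.64 and -1.26.

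**Figure D2:**
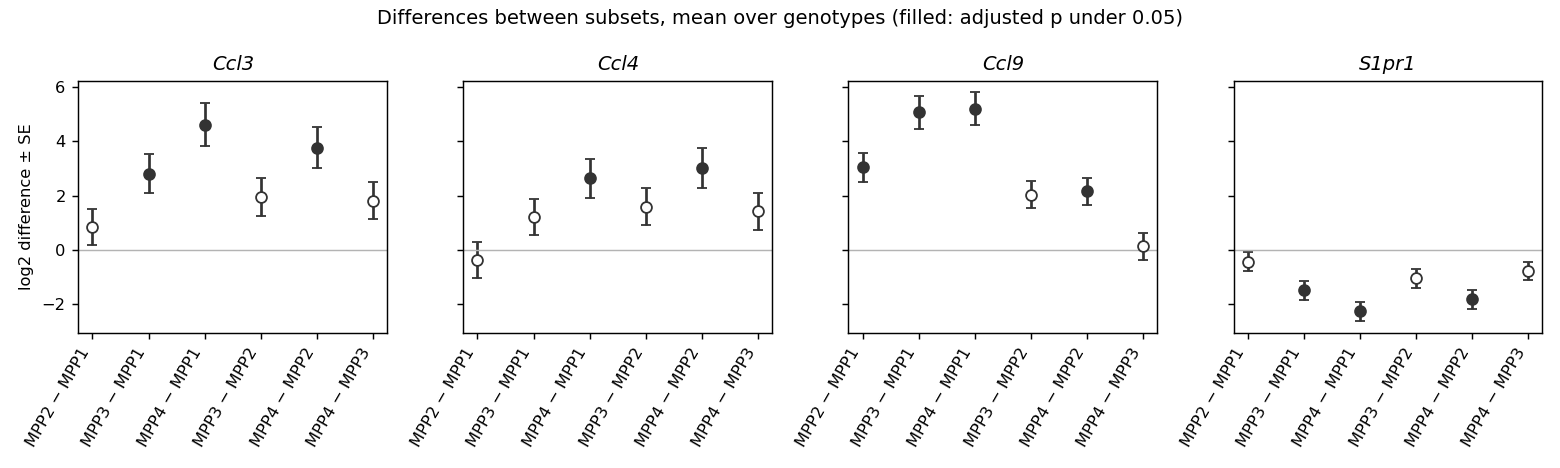
Log2 differences between subsets for Ccl3, Ccl4, Ccl9 and S1pr1, the 4 genes with counts in every library. Points are the mean over genotypes from edgeR, the subset named first on top, bars are the SE, and filled points passed an adjusted p of 0.05. The 3 chemokine genes lie above 0 in MPP4 against MPP1, from 2.63 to 5.19, and S1pr1 lies below 0 in all 6 pairs.

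Ccr9 encodes the receptor of CCL25, known for thymus settling and for gut homing. No count was found in any of the 8 MPP1 libraries. It had a lowest, median and highest level of 0, 0 and 7.67 CPM in MPP2 (5 libraries at 0), 0, 1.77 and 13.5 in MPP3 (4 at 0) and 25.3, 49.9 and 138.6 in MPP4 (none at 0). All MPP4 libraries lay above all libraries of the other 3 subsets. The MPP4 mean was 81.0 CPM in the 5 libraries outside the 8 and 35.9 in the 3 within. Against a floor of 3 counts per library, the mean MPP4 level was at least 501-fold higher than in MPP1, that of MPP3 at least 38.3-fold and that of MPP2 at least 17.02-fold. MPP4 passed the test against MPP1 (adjusted p = 0.00171) and against MPP2 (adjusted p = 0.0327), but not against MPP3 (adjusted p = 0.107). The fit gave no usable test for the other 3 pairs, because groups on both sides were at 0. The call against MPP2 ended without MPP2 wild type 2, MPP2 1013/1013 1, MPP4 wild type 1, MPP4 +/1013 1 or MPP4 1013/1013 2, and both calls ended in wild type alone. Plasmacytoid dendritic cells also carry CCR9. The 7 genes listed as their markers made up 0.0177% to 0.0998% of counts in MPP4 and 0.00918% to 0.0157% in MPP1, and Siglech, which defines them, had a median of 10.9 CPM in MPP4 and was at 0 in 7 of 8 MPP1 libraries. In MPP4 against MPP1, medians were 105 against 0 CPM for Ly6d, 23.9 against 0 for Cox6a2 and 3.95 against 0 for Spib. They were 95.9 against 81.7 for Bst2 and 31.45 against 34.25 for Tcf4, and Klk1 was at 0 in 7 of 8 MPP4 libraries. Of the 8 MPP3 libraries, 4 had Ccr9 counts. Siglech and Klk1 were at 0 in all 8 of them, Spib in 3, Cox6a2 in 1, and Ly6d, Bst2 and Tcf4 in none. The part of such cells in the MPP4 level was not tested.

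Ccr2 encodes the receptor of CCL2, which brings monocytes out of the marrow. In MPP1, 7 of 8 libraries had no count, and MPP1 +/1013 3 had 2. Its lowest, median and highest level was 3.67, 7.98 and 109 CPM in MPP2, 0, 9.36 and 107 in MPP3 and 5.42, 49.1 and 185.9 in MPP4 (n = 8 each). Every MPP2 and MPP4 library and 7 of 8 MPP3 libraries lay above all MPP1 libraries. The ratio of pooled counts to MPP1 was 6309 in MPP4 (95% interval 1747 to 52100), 2912 in MPP3 (806 to 24050) and 2076 in MPP2 (575 to 17140), intervals that cover counting error only and rest on the 2 counts of 1 MPP1 library. Most of those counts came from the 8 libraries: the mean was 111 CPM in the 3 of them from MPP4 and 35.6 in the 5 other MPP4 libraries, 98.6 against 6.96 in MPP3 (n = 2 and 6) and 61.6 against 5.89 in MPP2 (n = 3 and 5). All 3 differences from MPP1 passed (adjusted p = 0.000267, 0.00314 and 0.00328), also without the 8, and those among MPP2, MPP3 and MPP4 did not (adjusted p = 0.637 to 1). The MPP3 call ended without MPP1 1013/1013 1 or MPP3 1013/1013 1, and the MPP3 and MPP2 calls ended in wild type alone.

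Cx3cr1 encodes the fractalkine receptor of monocytes and macrophages, and Ccr1 a receptor of neutrophils and monocytes for CCL3 and CCL9. Cx3cr1 had a count in 1 of 8 MPP1 libraries (0.645 CPM in MPP1 wild type 1). It had a lowest, median and highest level of 0, 2.58 and 32.2 CPM in MPP2, 0, 2.04 and 27.9 in MPP3 and 0.158, 4.82 and 30.5 in MPP4 (n = 8 each). It passed in MPP4 against MPP1 (adjusted p = 0.0219) and not in MPP3 or MPP2 against MPP1 (adjusted p = 0.0736 and 0.0555). In MPP4 its mean was 15.3 CPM in the 3 libraries of the 8 and 3.57 in the other 5, and the call against MPP1 held without the 8 (adjusted p = 0.0387). That call ended without either MPP1 1013/1013 library and in wild type alone. Ccr1 was at 0 in 5 of 8 MPP1 libraries and at 0.992, 2.10 and 4.19 CPM in the other 3. Its median was 7.39 CPM in MPP2, 9.24 in MPP3 and 10.8 in MPP4, with 2 libraries at 0 in each and highest levels of 53.5, 63.8 and 52.4. It passed in no pair of subsets by this test (adjusted p = 0.0692 to 1), while DESeq2 called Ccr1 and Cx3cr1 in MPP4, MPP3 and MPP2 against MPP1. The 12 monocyte and macrophage genes made up 0.00387% to 0.0812% of counts in MPP4, 0.00535% to 0.0606% in MPP3, 0.00375% to 0.0583% in MPP2 and 0.00112% to 0.00619% in MPP1. Csf1r was at 0 in 7 and Adgre1 in 8 of the 8 MPP1 libraries.

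Within subsets, Ccr1 and Ccr2 went with the library number. Ccr1 was 18.6 to 53.5 CPM in the MPP2 libraries numbered by multiples of 3 and 0 to 12.6 in the others, 37.8 to 63.8 against 0 to 16.5 in MPP3, and 15.5 to 52.4 against 0 to 12.9 in MPP4, with no overlap in any of the 3 subsets. Ccr2 was 33.8 to 109 CPM against 3.67 to 9.99 in MPP2 and 90.2 to 107 against 0 to 13.8 in MPP3. In MPP4 the 2 sets overlapped through MPP4 1013/1013 2, at 5.42 CPM. Ccl3 and Ccl4 ran the other way. Ccl3 was 3.25 to 4.89 CPM against 18.8 to 83.7 in MPP3 and 21.8 to 35.5 against 61.1 to 345 in MPP4, and Ccl4 was 11.3 to 15.2 against 69.7 to 155.8 in MPP3 and 28.4 to 34.3 against 151 to 604 in MPP4. In MPP2 both chemokine genes overlapped between the sets. Ccl9 was higher without overlap in MPP2 (43.7 to 152 against 9.64 to 28.4). Cx3cr1 and S1pr1 were higher without overlap in MPP3 (7.95 to 27.9 against 0 to 7.65, and 68.8 to 74.8 against 29.4 to 67.1). There the sets nearly met, with 2 libraries against 6. The share of all genes that separate the sets in this way was not counted. Nothing particular to the 8 genes is read from these separations. In the MPP3 libraries numbered by multiples of 3, all 10 neutrophil genes were detected and made up 0.219% to 0.271% of counts, against 0.000752% to 0.00702% in the other 6. In MPP4 the share was 0.00302% (in MPP4 1013/1013 2) to 0.381%, against 0.000618% to 0.00205%, and in MPP2 0.0860% to 0.253%, against 0.000611% to 0.00436%. The 6 erythroid genes made up 0.138% to 0.338% in MPP3, against 0.00354% to 0.0230%. The neutrophil marker gene Ly6g was at 0 in all 8 MPP1 libraries and in 5, 6 and 6 of the 8 libraries of MPP2, MPP3 and MPP4. What set these libraries apart was not tested.

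**Figure D3:**
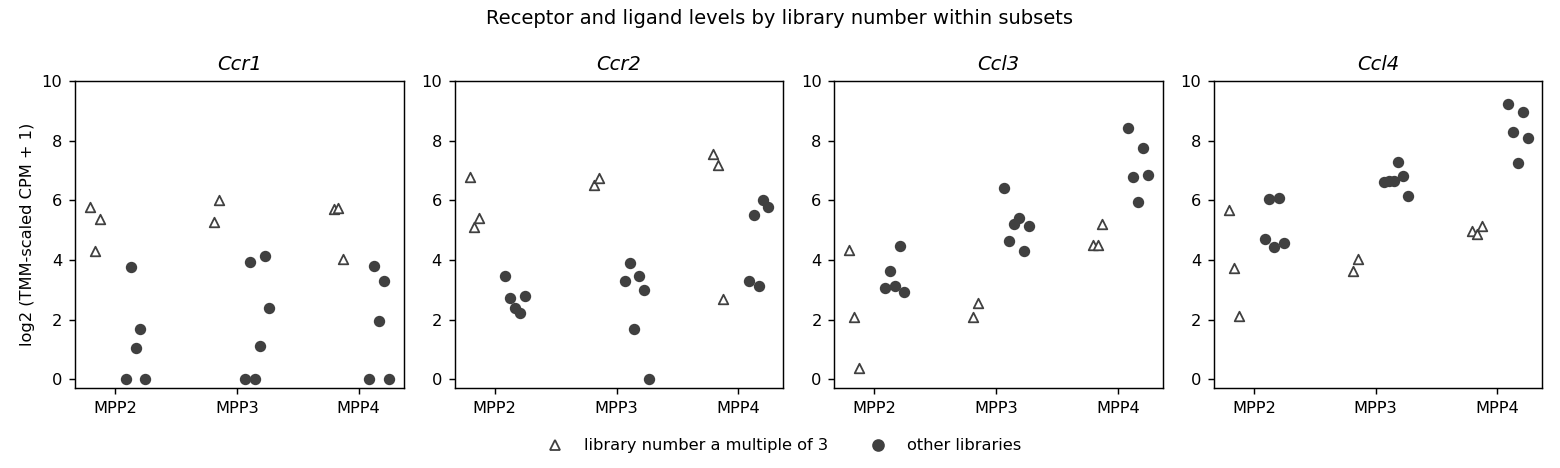
Ccr1, Ccr2, Ccl3 and Ccl4 in MPP2, MPP3 and MPP4, as log2 of TMM-scaled CPM plus 1, in the 8 libraries whose number is a multiple of 3 (triangles) and the other 16 (circles). The triangles are above the circles for Ccr1 in all 3 subsets and below them for Ccl3 and Ccl4 in MPP3 and MPP4.

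Between MPP3 and MPP2, and between MPP4 and MPP3, none of the 8 genes passed by edgeR, where 0.798% (0.509% higher, 0.289% lower) and 0.969% (0.294% higher, 0.675% lower) of all genes did. At an unadjusted p under 0.05 there were 4 in each pair: Ccl3, Ccl4, Ccl9 and S1pr1 in MPP3 against MPP2, and Ccr9, Ccl3, Ccl4 and S1pr1 in MPP4 against MPP3. Of all 18676 genes tested, 2157 and 2108 had such a p in these pairs. DESeq2 called 3 in MPP3 against MPP2 and 1 in MPP4 against MPP3, and limma-voom called 1 in each. Without the 8 libraries, 2 passed in MPP3 against MPP2, Ccl3 (log2 1.98) and Ccl9 (log2 3.39), and 1 in MPP4 against MPP3, Ccl3 (log2 2.00).

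Per kilobase of the deposited median transcript length, with genotypes weighted equally, the 8 genes could be ordered within a subset. Ccl4 was highest in all 4 subsets, with 54.7 CPM per kb for MPP1, 46.9 for MPP2, 125.8 for MPP3 and 349.5 for MPP4. S1pr1 was of rank 2 in MPP1 (48.3 CPM per kb) and in MPP2 (34.5), of rank 4 in MPP3 (16.8) and of rank 6 in MPP4 (9.99). In MPP4, Ccl3 (144 CPM per kb) and Ccl9 (122) came next to Ccl4, then Ccr2 (18.5), Ccr9 (17.2), S1pr1, Ccr1 (5.93) and Cx3cr1 (2.03). These are levels over all libraries of a subset. Among the 8 libraries numbered by multiples of 3, Ccl9 was the highest per kb in 7 and S1pr1 in 1, and Ccl4 in none. In those of MPP4, Ccl9 had 91.0 to 188.5 CPM per kb and Ccl4 42.97 to 52.03, whereas in the other 5 MPP4 libraries Ccl9 had 83.8 to 129 and Ccl4 229 to 915. In MPP3, Ccl9 had 98.2 to 172 in the 2 libraries of that set and lay above Ccl4 in both, and Ccl4 was the highest gene in 5 of the other 6. Also, the ranges of Ccl4, Ccl3 and Ccl9 in CPM overlap in MPP4.

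The question of the genotype comparisons was whether the shortened CXCR4 goes with other levels of these genes. None of the 8 passed by edgeR in any of the 3 comparisons averaged over subsets. In 1013/1013 against wild type 0.685% of all genes passed, 0.209% higher and 0.477% lower, in +/1013 against wild type 0.0214%, and in 1013/1013 against +/1013 0.0428%. No member had an unadjusted p under 0.05 in any of the 3, and limma-voom called none. Of all 18676 genes tested, 3057 had such a p in 1013/1013 against wild type, 747 in +/1013 against wild type and 1701 in 1013/1013 against +/1013. DESeq2 called Ccr1 and Cx3cr1 in 1013/1013 against wild type, Cx3cr1 in +/1013 against wild type and Ccr1 in 1013/1013 against +/1013. Both genes have groups with no count. Ccr1 was at 0 in 4 of 8 libraries of 1013/1013, 3 of 12 of +/1013 and 4 of 12 of wild type, with medians of 2.14, 2.15 and 8.39 CPM. Cx3cr1 was at 0 in 3 of 8, 5 of 12 and 3 of 12 libraries, with medians of 0.459, 0.185 and 2.83 CPM, and the genotypes overlapped for both genes. The fit gave no usable test of Ccr9 in any of the 3, of Ccr2 in 1013/1013 against wild type, or of Cx3cr1 in 1013/1013 against +/1013.

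Log2 differences could be given for the 4 genes with counts in every library, and none passed. Ccl3 had a lowest, median and highest level of 0.283, 12.6 and 113 CPM over the 8 libraries of 1013/1013, 3.24, 14.5 and 212 over the 12 of +/1013 and 2.28, 15.3 and 345 over the 12 of wild type. Set against wild type, the log2 difference of 1013/1013 was -0.77 (SE 0.61, adjusted p = 0.617), while that of +/1013 was -0.18 (SE 0.53, adjusted p = 1). Ccl4 had 3.39, 38.4 and 268.5 CPM in 1013/1013, 8.35, 38.2 and 495 in +/1013 and 11.3, 52.7 and 604 in wild type, at log2 -0.66 (SE 0.61, adjusted p = 0.710) and -0.29 (SE 0.53, adjusted p = 1). For Ccl9 the differences were -0.38 (SE 0.44, adjusted p = 0.823) and 0.14 (SE 0.39, adjusted p = 1), and for S1pr1 -0.26 (SE 0.31, adjusted p = 0.840) and -0.17 (SE 0.27, adjusted p = 1). In 1013/1013 against +/1013 the 4 log2 differences were -0.59, -0.37, -0.52 and -0.09 for Ccl3, Ccl4, Ccl9 and S1pr1 (adjusted p = 0.874 to 1). The genotypes' ranges overlapped for all 4. The median log2 difference of all genes was -0.17 in 1013/1013 against wild type, 0.01 in +/1013 against wild type and -0.16 in 1013/1013 against +/1013. The 2 comparisons with wild type share its libraries. A p that misses the threshold does not show that the genotypes have the same level.

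**Figure D4:**
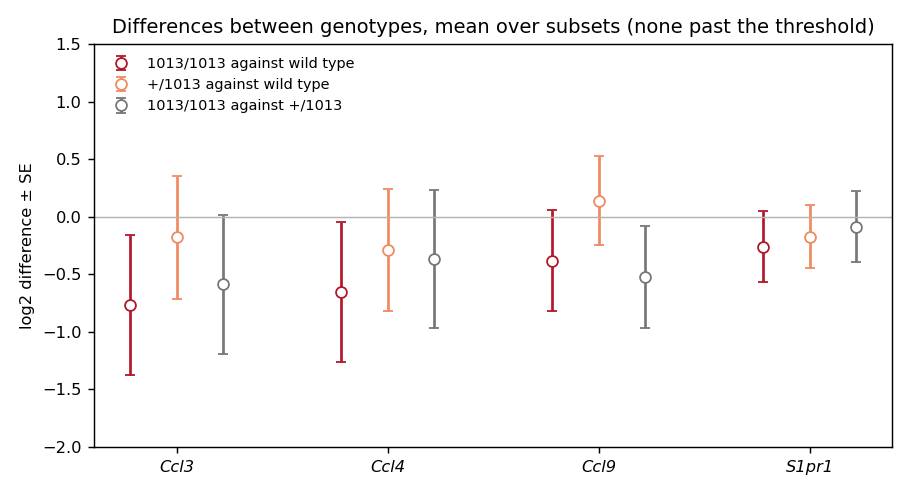
Log2 differences between genotypes for Ccl3, Ccl4, Ccl9 and S1pr1, averaged over the 4 subsets, with the SE from edgeR as bars. In 1013/1013 against wild type the 4 lie between -0.77 and -0.26, and none of the 12 points passed the threshold.

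In MPP4, Ccl3 was 113 and 35.5 CPM in 1013/1013, 61.1, 212 and 21.8 in +/1013 and 345, 109 and 21.8 in wild type, which overlap. Ccr9 in MPP4 was 56.3 and 36.6 CPM in 1013/1013, 119, 65.5 and 27.4 in +/1013 and 138.6, 25.3 and 43.6 in wild type, which overlap too. S1pr1 in MPP4 was 15.0 and 27 CPM in 1013/1013, 29.4, 35.1 and 29.9 in +/1013 and 53.6, 26.6 and 36.4 in wild type. Both 1013/1013 libraries lay below all +/1013 libraries and overlapped wild type. Within MPP4, 1013/1013 was not tested against +/1013, and the share of all genes so separated was not counted. In MPP1 the same receptor was 325.5 and 85.6 CPM in 1013/1013, 128, 84.2 and 106 in +/1013 and 171, 154 and 63.5 in wild type, which overlap. Ccr9 in MPP2 had no count in any +/1013 library, 0 and 7.67 CPM in 1013/1013 and 0, 2.23 and 7.52 in wild type. In MPP3 it had no count in either 1013/1013 library, 0, 3.54 and 13.5 CPM in +/1013 and 12.9, 9.17 and 0 in wild type.

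None of the 8 genes passed in any of the 8 comparisons of a mutant genotype with wild type within a subset. Of all genes, 0.712% passed in 1013/1013 in MPP4 (0.0696% higher), 0.00535% in 1013/1013 in MPP1 and in MPP2, and 0 in the other 5. At an unadjusted p under 0.05 there was only Ccr9, in +/1013 in MPP2 and in 1013/1013 in MPP3. Of all 18676 genes tested, 899 and 778 had such a p in these comparisons. DESeq2 called Cx3cr1 in +/1013 and Ccr1 and Cx3cr1 in 1013/1013, all in MPP1, and limma-voom called none. Whether the genotype difference itself varied between subsets was tested by a joint F-test of the interaction in edgeR. No member passed for 1013/1013, where 0.0589% of all genes did, or for +/1013, where 0 did, none had an unadjusted p under 0.05, and DESeq2 and limma-voom called none. Of all 18676 genes tested, 1525 and 415 had such a p for 1013/1013 and +/1013.

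Other genes of the same pathways were read from 4 lists. Their values are over all libraries of a subset, and none is given without the libraries numbered by multiples of 3. Of 17 other chemokine and atypical receptor genes tested, 3 passed in MPP4 against MPP1, where 14.7% of all genes did: the lymph node homing receptor gene Ccr7 and the dendritic cell receptor gene Xcr1 were higher, and the decoy receptor gene Ackr1 lower. Ccr7 had 68.5 ± 38.7 CPM in MPP4 and 0.503 ± 0.932 in MPP1 (SD, n = 8 each, adjusted p = 2.72e-05). Of 22 other chemokine genes tested, Ccl6 and Ccl5 were higher in MPP4 than in MPP1 and Pf4 and Ccl2 lower, beside 7.59% of all genes higher and 7.12% lower. Ccl6, a close relative of Ccl9, had 69.8 ± 86.0 CPM in MPP4 and 0.560 ± 0.727 in MPP1 (n = 8 each, adjusted p = 0.00594). The platelet chemokine gene Pf4 had 5.94 ± 6.12 CPM in MPP4 and 71.0 ± 29.5 in MPP1 (log2 -3.69, adjusted p = 0.000115). Cxcr4 itself had 68.4 ± 44.3 CPM in MPP4 and 30.1 ± 12.8 in MPP1 and missed the threshold (log2 1.19, SE 0.42, adjusted p = 0.0600).

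Around S1pr1, 4 of the 13 other sphingosine 1-phosphate genes tested passed in MPP4 against MPP1 (14.7% of all genes). The exporter gene Spns2 had 271.0 ± 33.7 CPM in MPP4 and 594.5 ± 123 in MPP1 (n = 8 each, log2 -1.18, adjusted p = 1.33e-05), and Mfsd2b, the exporter of red cells and platelets, was also lower (6.97 ± 13.9 against 46.4 ± 21.5 CPM, adjusted p = 0.0273). The lyase gene Sgpl1, whose product breaks the lipid down, was higher (197 ± 67.1 against 87.3 ± 27.8 CPM, log2 1.10, adjusted p = 0.0197). Cd69, whose protein takes S1PR1 off the cell surface in lymphocytes, was higher too (1009 ± 913 against 184.5 ± 40.7 CPM, log2 2.29, adjusted p = 0.0166). Klf2, a transcription factor that drives S1pr1 in lymphocytes, missed the threshold (log2 -2.03, SE 0.91, adjusted p = 0.130). Of 13 receptor genes for other attractants, P2ry14, Ltb4r1 and Ltb4r2 passed, all higher in MPP4, as were 7.59% of all genes. P2ry14, which binds UDP-sugars, had 390.5 ± 96.5 CPM in MPP4 and 56.8 ± 16.7 in MPP1 (log2 2.79, SE 0.23, adjusted p = 3.02e-08). In MPP3 against MPP1, 2, 3, 0 and 2 genes of the 4 lists passed, where 3.11% of all genes did, and in MPP2 against MPP1 1, 1, 0 and 1, where 6.73% did. Nothing particular to a list is read from these counts. In each of the 3 genotype comparisons averaged over subsets, no gene of any of the 4 lists passed.

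The genes most like each member over the 32 libraries were ranked by Spearman's rho of TMM-scaled log2 CPM, among tested genes with a mean of at least 5 CPM, as a description. All points share depth, subset and library set. Ccl9 went most closely with Tespa1, an adaptor gene of lymphocyte signalling (rho 0.94), then Tnfaip8l2 (0.91). S1pr1 went with Rab37 (0.88), Mlf1 (0.86) and the retinaldehyde dehydrogenase gene Aldh1a1 (0.85), Ccl4 with Cd69 (0.87) and the receptor gene Hcar2 (0.83), and Ccl3 with Trit1 (0.88). Ccr2 went with the galectin gene Lgals3 (0.89), Anxa3 (0.86) and Ccl6 (0.84), and Cx3cr1 with Lgals3 (0.84) and the mast cell and basophil gene Hdc (0.84). Ccr1 went with Cyp4f18 (0.86), Ccl6 (0.85) and Trem3 (0.84), and Ccr9 with the B cell linker gene Blnk (0.85), Cd33 (0.84) and Tm6sf1 (0.83). Among the members, Ccr2 and Cx3cr1 had rho 0.82 over the 32 libraries and 0.71 over the 24 without the 8, and Ccl3 and Ccl4 had 0.77 and 0.81. Ccr1 and Ccr2 had 0.63 and 0.28. Ccr2 and Ccl4 had 0.05 over all libraries and 0.67 over the 24.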

How the data were processed

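RNA was sequenced from pools of 3000 sorted cells, with 350 to 1000 pg of RNA, SMART-Seq v4 amplification for 12 cycles and Nextera XT libraries with 12 cycles, per the labels' protocols. The values used are the deposited counts per Ensembl gene, which the file headers call raw. STAR, HTSeq and mm10 are named in the submitters' processing notes, and versions and strand setting are not given in the sources used here. The 64 normalized columns were not used. The deposited table's gene coordinates matched GENCODE M21 for all 8 genes, and its median transcript length was used for levels per kilobase. No pair of libraries held identical values.

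Counts were tested with edgeR 4.0.16 in R 4.3.3. filterByExpr on the 12 groups left 18676 genes. Scaling was TMM, the dispersion was the trend, and glmQLFit and glmQLFTest were fitted with 1 coefficient per group (20 residual degrees of freedom). Comparisons were contrasts weighting genotypes or subsets equally. SEs were derived from the F statistic (the size of the log2 difference over its root). Adjustment was by Benjamini-Hochberg, over all genes tested. Groups at 0 make a fitted log2 value depend on the prior count, so levels, ratios or a floor of 3 counts per library are given instead. Amplified reads carry no molecular identifiers, so intervals and floors cover counting error only. The fit was tested on simulated data.

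Alternatives were RLE scaling, no filter, DESeq2 1.42.0, limma-voom (limma 3.58.1) and a replicate block. Others were terms for the 8 libraries numbered by multiples of 3 and for the 5 numbered 46 or higher, and leaving out those 8. Each library was also left out in turn. Wild type alone was a contrast of the wild-type groups within the main fit, not a refit. All 8 genes are named in every comparison, with up to 4 passing genes of each pathway list by lowest p. Of the 3 genes most like each member, not all are named. The members, lists and alternatives were chosen with earlier results of these data known.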

Additional observations from a re-analysis of the deposited data

Results flagged for a closer look

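The level of each of the 8 genes was checked for single libraries far from the other 7 of their subset by Dixon's test at the 95% level, in 31 groups of 8. Libraries stood out in 10 of them. The test's rate of about 1 in 20 groups holds for normally distributed values. CPM were not transformed and several groups hold zeros, so the 10 are not set against that rate. Ccr2 and Cx3cr1 in MPP1 were at 0 in 7 libraries, where any count in the remaining library is flagged. Ccr2 stood out in MPP1 +/1013 3 (0.0668 CPM, the next at 0) and in MPP2 wild type 3 (109.3 CPM, the next at 41.9). Cx3cr1 stood out in MPP1 wild type 1 (0.6445 CPM, the next at 0), MPP2 +/1013 3 (32.24 CPM, the next at 9.36), MPP3 wild type 3 (27.88 CPM, the next at 7.95) and MPP4 wild type 3 (30.52 CPM, the next at 13.3). Of these 6, the 4 outside MPP1 are libraries whose number is a multiple of 3. Ccl3 stood out in MPP3 wild type 1 (83.73 CPM, the next at 41.1), and Ccl9 in MPP1 +/1013 1 (13.14 CPM, the next at 7.67). S1pr1 stood out in MPP1 1013/1013 1 (325.5 CPM, the next at 170.8) and in MPP2 wild type 1 (251.9 CPM, the next at 134.0). All 10 were the highest library of their subset.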

How the results depend on the processing

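Of the 18 differences of a gene between subsets that passed, all 18 kept their direction and passed with RLE scaling, without a filter, in DESeq2, with a term for the 8 libraries numbered by multiples of 3 and without them, and 17 passed with a term for the late libraries. The replicate numbers were not taken as pairing: 46 of 160 pairs with the same number had correlated deviations over 0.1, although 23 of 32 libraries went best with their own number, a hint from the data and not the design. With the replicate block, the members that passed numbered 1 in MPP3 against MPP2 and 4 in MPP4 against MPP2 (without Ccr9), and Ccl9 in 1013/1013 against wild type turned to log2 0.11. DESeq2 called 5 members in MPP2 against MPP1, 7 in MPP3 against MPP1, 8 in MPP4 against MPP1, 3 in MPP3 against MPP2 and 1 in MPP4 against MPP3. It called 2 in 1013/1013 and 1 in +/1013 against wild type and 1 in 1013/1013 against +/1013 over subsets, and 2 in 1013/1013 and 1 in +/1013 in MPP1. limma-voom called 1 in MPP2 against MPP1, 1 in MPP3 against MPP2, 3 in MPP4 against MPP2 and 1 in MPP4 against MPP3. It kept 13 of the 18 calls. These included Ccl9, Ccr2 and S1pr1 in MPP3 against MPP1, and Ccl3, Ccl9, Ccr2, Ccr9, Cx3cr1 and S1pr1 in MPP4 against MPP1. The term for the 8 libraries gave 1 in MPP3 against MPP2 and 1 in MPP4 against MPP3, and leaving them out 2 and 1. Contrasts of wild type alone, from the main fit, gave 0, 1 and 3 in MPP2, MPP3 and MPP4 against MPP1. Of all genes, 0, 0.102% and 0.76% passed there. Wild type alone gave 0 in MPP4 against MPP2, where 0.428% of all genes passed. It kept 4 of the 18 calls and compares fewer samples. Shares of all genes in the other settings are not given here, and nothing particular to the 8 genes is read from those counts. Leaving out 1 library gave 2 to 3 members in MPP2 against MPP1, 1 to 4 in MPP3 against MPP1, 5 to 7 in MPP4 against MPP1, 0 to 1 in MPP3 against MPP2 and 3 to 5 in MPP4 against MPP2, and 0 in every other comparison. It ended 8 of the 18 calls in at least 1 fit, 27 of 288 fits. Signs turned only among differences that had not passed. Ccl3 in +/1013 against wild type was 0.0126 without the 8 libraries (-0.49 to 0.18 leaving out 1 library), and Ccl3 in MPP2 against MPP1 ranged from -0.33 to 1.17. Ccl4 in MPP2 against MPP1 was 0.54 with the term for the 8 and 0.15 in wild type alone. Ccl9 in +/1013 against wild type was -0.0353 without the 8 (-0.30 to 0.51), and in MPP4 against MPP3 -0.0499 with the term for the 8 (-0.0502 to 0.39). S1pr1 ranged from -0.26 to 0.10 in +/1013 against wild type and from -0.56 to 0.0177 in 1013/1013 against wild type, and in 1013/1013 against +/1013 it was 0.0697 with the term for the late libraries (-0.39 to 0.0678). The causes were not tested. Where leaving out 1 library, or the 8, left a lone 1013/1013 library in a group, it was assumed to vary like the others. Leaving out the 8 did so in MPP2 and in MPP4. Genes with groups at 0 are limited by depth: at 0 counts only levels under the floor of 3 counts are allowed.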
